A study of Sus scrofa with 6 samples.

Results

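The genes *GABRP*, *CLDN8*, *ILDR1*, *CHIA* and *PRSS33*, grouped as genes of skin glands and epithelial junctions, were followed in ear tissue of 6 Sutai piglets. They are 5 of the 22204 Ensembl transcripts with a read in any library, with 1 transcript identifier per gene. Members were chosen by gene name from a list of 280 transcripts, made with Cuffdiff as differing between the genotypes of these same libraries. The choice therefore rests on the contrast between genotypes, and the values of that contrast are given below as a description and not as a test. The 3 wild-type piglets (6161ST, 6165ST and 6407, labelled qq) carry no copy gain at the ear size locus on chromosome 5, and the 3 CNV/CNV piglets (6185STQ, 6415 and 6434, labelled QQ) are homozygous for a duplication that covers the last exons of *MSRB3*. All 6 were new born animals of Sutai, which descends from Duroc and Meishan pigs, with 1 library of polyadenylated RNA each. The labels give the tissue only as ear, and which layers each sample held is not stated. In bulk tissue, fewer cells of a type and less RNA per cell cannot be told apart.

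Epithelial sheets and glands are sealed by tight junctions, belts of membrane proteins in which claudins set what passes between neighbouring cells and angulins close the corners where cells meet. *CLDN8* encodes a claudin of rather impermeable epithelia, and *ILDR1* an angulin that is also needed for hearing. *GABRP* encodes the pi subunit of GABA-A receptors, chloride channels, and is known from secretory epithelia more than from neurons. *CHIA* encodes the acidic chitinase that stomach, airway and other glands secrete, and *PRSS33* a trypsin-like serine protease that has been described in macrophages and eosinophils. The name of the group thus follows the known roles of most of these genes, and the cells that made the transcripts were not observed here.

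The libraries held from 39.3 to 44.2 times 1000000 reads assigned to transcripts. The 5 genes together took 0.106% of the reads in 6161ST, 0.0879% in 6165ST, 0.0276% in 6407, 0.0250% in 6185STQ, 0.0146% in 6415 and 0.0621% in 6434. Levels below are the deposited RPKM, reads scaled to the length of the transcript and to the assigned reads of the library, which are comparable between genes. In all 6 libraries the level of *GABRP* was above that of *CLDN8*, that of *CLDN8* above *PRSS33* and that of *PRSS33* above *ILDR1*. *CHIA* had the highest level of the 5 in 3 libraries and ranked lower in the others.

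*CLDN8* (ENSSSCT00000013162) is placed on chromosome 13 of the Sscrofa11.1 build from 193563314 to 193564090, and its transcript model is 678 bases long. Its level was 42.4 RPKM in 6161ST, 36.1 in 6165ST and 21.0 in 6407, and in the CNV/CNV piglets 14.7 RPKM in 6185STQ, 13.6 in 6415 and 19.9 in 6434. The mean of the wild-type piglets was 33.2 ± 11 RPKM (SD, n = 3), and that of the CNV/CNV piglets 16.1 ± 3.37 RPKM (SD, n = 3), or 48.5% of the wild-type mean. All CNV/CNV piglets lay below all wild-type piglets, but only just: 6407 was 5.60% above 6434, while counting alone gives this comparison a relative error of 5.77%. The reads covered from 99.12% to 99.56% of the transcript in the 6 libraries.

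*ILDR1* (ENSSSCT00000026283, chromosome 13 from 138530909 to 138572189) was the lowest of the 5, with 134 to 379 reads per library. It had 4.93 RPKM in 6161ST, 4.42 in 6165ST and 2.39 in 6407 against 1.92 RPKM in 6185STQ, 1.64 in 6415 and 2.46 in 6434. The mean of the wild-type piglets was 3.91 ± 1.34 RPKM (SD, n = 3), and that of the CNV/CNV piglets 2.0 ± 0.416 RPKM (SD, n = 3). The groups overlapped, since the wild-type piglet 6407 differed by -2.64% from the CNV/CNV piglet 6434, a gap within the counting error of 10.1%. What set the wild-type mean apart were 6161ST and 6165ST.

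These 2 junction genes kept nearly the same proportion in every animal. The ratio of *CLDN8* to *ILDR1* in RPKM ranged from 7.68 in 6185STQ to 8.79 in 6407, a range of 1.14-fold, while each gene itself varied 3.11-fold and 3.01-fold over the 6 piglets. Across the 6 libraries the log2 CPM (counts relative to the TMM-scaled library size) of the 2 genes had a Pearson r of 0.99. This value, like the other correlations below, describes 6 points in 2 genotypes that share library and depth.

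*GABRP* (ENSSSCT00000026800, chromosome 16 from 53203887 to 53229189) had 5367 to 15618 reads per library, more than *CHIA* in 3 of the 6. Its level was 119 RPKM in 6161ST, 127 in 6165ST and 77.4 in 6407, and 55.5 RPKM in 6185STQ, 40.4 in 6415 and 62.9 in 6434. The mean of the wild-type piglets was 108 ± 26.7 RPKM (SD, n = 3), and that of the CNV/CNV piglets 52.9 ± 11.4 RPKM (SD, n = 3). The groups did not overlap, and 6407, the lowest wild-type piglet, was 23.1% above 6434 with a counting error of 1.48%. Over all transcripts with a read, its mean level of 80.4 RPKM over the 6 libraries ranked at 800, at the 96.4 percentile. *GABRP* followed the junction genes closely, with ratios to *CLDN8* from 2.81 to 3.77 and to *ILDR1* from 24.2 to 32.4, each a range of 1.34-fold.

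*PRSS33* (ENSSSCT00000026769, chromosome 3 from 39302486 to 39304459) had 28.2 RPKM in 6161ST, 22.1 in 6165ST and 15.5 in 6407, and 12.1 RPKM in 6185STQ, 8.18 in 6415 and 8.67 in 6434. The mean of the wild-type piglets was 21.9 ± 6.36 RPKM (SD, n = 3), and that of the CNV/CNV piglets 9.64 ± 2.12 RPKM (SD, n = 3). The groups were apart, with 6407 above 6185STQ by 28.6% at a counting error of 6.53%. Its order among the CNV/CNV piglets differed from that of *GABRP*, *CLDN8* and *ILDR1*: for these 3 the highest was 6434, for *PRSS33* it was 6185STQ. The ratio of *GABRP* to *PRSS33* accordingly rose to 7.25 in 6434 from 4.22 to 5.75 in the other piglets.

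*CHIA* (ENSSSCT00000030532, chromosome 4 from 109031294 to 109046499) behaved unlike the other 4. It had 386 RPKM (25941 reads) in 6161ST, 269.6 RPKM (17863 reads) in 6165ST and 5.43 RPKM (393 reads) in 6407. In the CNV/CNV piglets it had 35.2 RPKM (2266 reads) in 6185STQ, 2.57 RPKM (184 reads) in 6415 and 247 RPKM (17212 reads) in 6434. The range was 149.9-fold over the 6 piglets, 71.0-fold within wild-type and 95.9-fold within CNV/CNV. A range past 10-fold, or a lowest library at 0, was found in 2.33% of the 16645 transcripts that passed the expression filter, and in none of the other 4 genes. The means of 220.2 ± 195 RPKM (SD, n = 3) and 94.8 ± 133 RPKM (SD, n = 3) thus stand for animals on both sides in each genotype, and the groups overlapped widely. Even the lowest library, 6415, had reads over 97.07% of the transcript, and that with the highest level, 6161ST, over 99.94%. Of the reads of the 5 genes together, *CHIA* took 65.1% in 6434 and 59.9% in 6161ST but 2.88% in 6415 and 3.22% in 6407. Its ratio to *GABRP* went from 0.0636 in 6415 to 3.92 in 6434, a range of 61.7-fold.

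**Figure D1:**
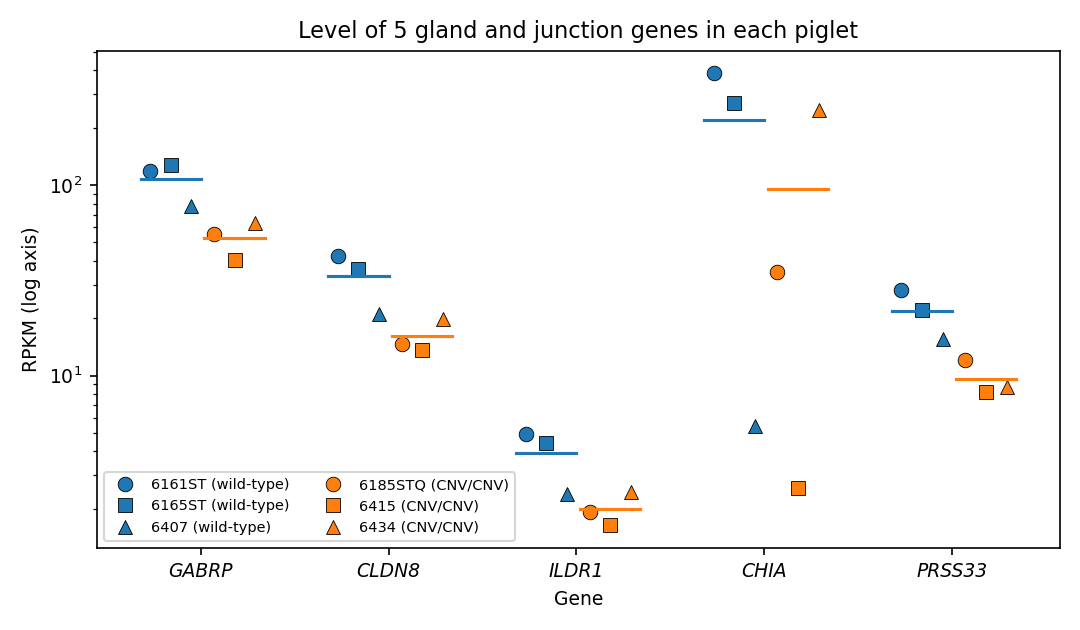
The log y axis gives RPKM of the 5 genes, 1 symbol per piglet, blue for wild-type and orange for CNV/CNV, and horizontal lines mark the means of 3 piglets. For GABRP, CLDN8 and PRSS33 the orange symbols lie below the blue ones, while CHIA runs from 2.57 to 386 RPKM with both colours at the top and at the bottom.

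The 5 genes shared the animals at their extremes. In 5 of 5 the 2 highest piglets were 6161ST and 6165ST, and in 5 of 5 the lowest was 6415. Among the 16645 transcripts that passed the expression filter, 23.9% had 6161ST and 6165ST highest, 22.3% had 6415 lowest and 8.40% had both. The list that the genes came from was made from these same 6 animals, so nothing is read from this. In the middle of the order, 6407 and 6434 were near each other for *CLDN8* and *ILDR1* and further apart for *GABRP* and *PRSS33*. As a share of the highest piglet, 6407 stood at 60.9% for *GABRP*, 49.6% for *CLDN8*, 48.5% for *ILDR1* and 55% for *PRSS33*, but at 1.41% for *CHIA*. In 6434 it was 49.5%, 47.0%, 49.9% and 30.7% for the same 4 genes and 64.0% for *CHIA*. In log2 CPM the 6 pairs among *GABRP*, *CLDN8*, *ILDR1* and *PRSS33* had a Pearson r from 0.87 to 0.99 over the 6 libraries, and the 4 pairs with *CHIA* from 0.51 (*PRSS33*) to 0.80 (*ILDR1*).

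**Figure D2:**
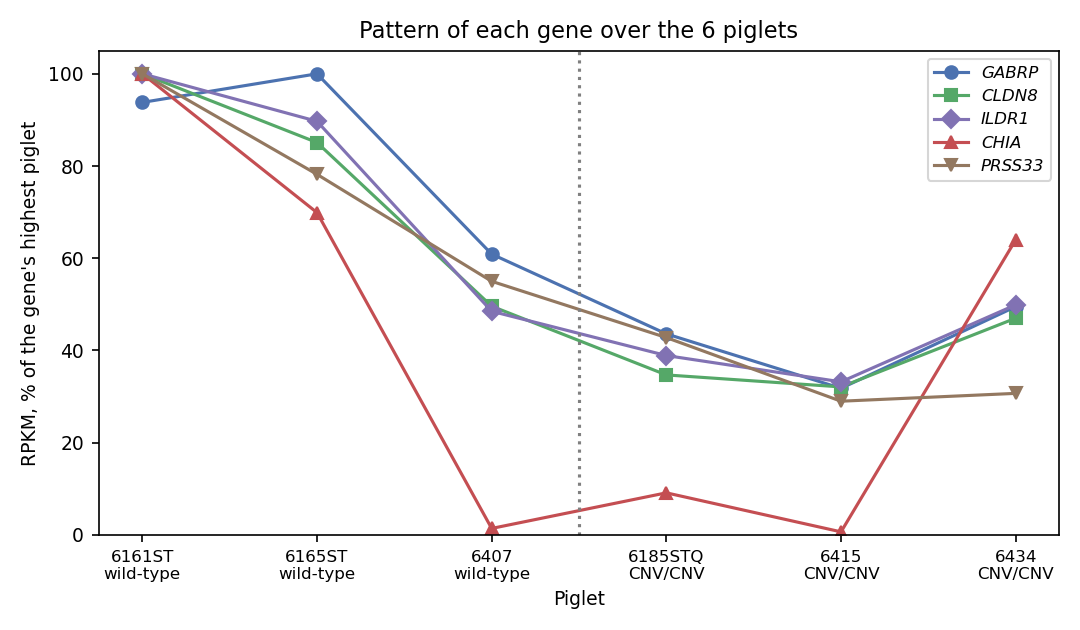
RPKM of each gene as a percentage of its highest piglet, with wild-type piglets left and CNV/CNV piglets right of the dotted line and 1 library per point. Lines join the points of a gene and stand for no order of the animals. GABRP, CLDN8 and ILDR1 run together, with 60.9%, 49.6% and 48.5% in 6407, and CHIA falls to 1.41% there and stands at 64.0% in 6434.

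Between piglets of 1 genotype, 4 of the genes varied about as much as other transcripts. The coefficient of variation of RPKM in wild-type and CNV/CNV piglets was 24.7% and 21.6% for *GABRP*, 33.1% and 20.9% for *CLDN8*, 34.3% and 20.8% for *ILDR1* and 29% and 22.0% for *PRSS33*. Counting alone gives 0.871% and 1.24% for *GABRP* and, for the shallowest gene, *ILDR1*, 5.96% and 8.09%, so that most of the spread lay between the animals or their samples. For *CHIA* the coefficient was 88.5% and 139.8%, with 2.97% and 4.45% from counting. On the scale of the edgeR model, the biological coefficient of variation was 1.13 for *CHIA*, above 99.9% of the transcripts tested. It was 0.220 for *GABRP*, 0.240 for *PRSS33*, 0.250 for *CLDN8* and 0.276 for *ILDR1*, at percentiles from 45.6 to 67.8, with a median of 0.229 over all transcripts tested.

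**Figure D3:**
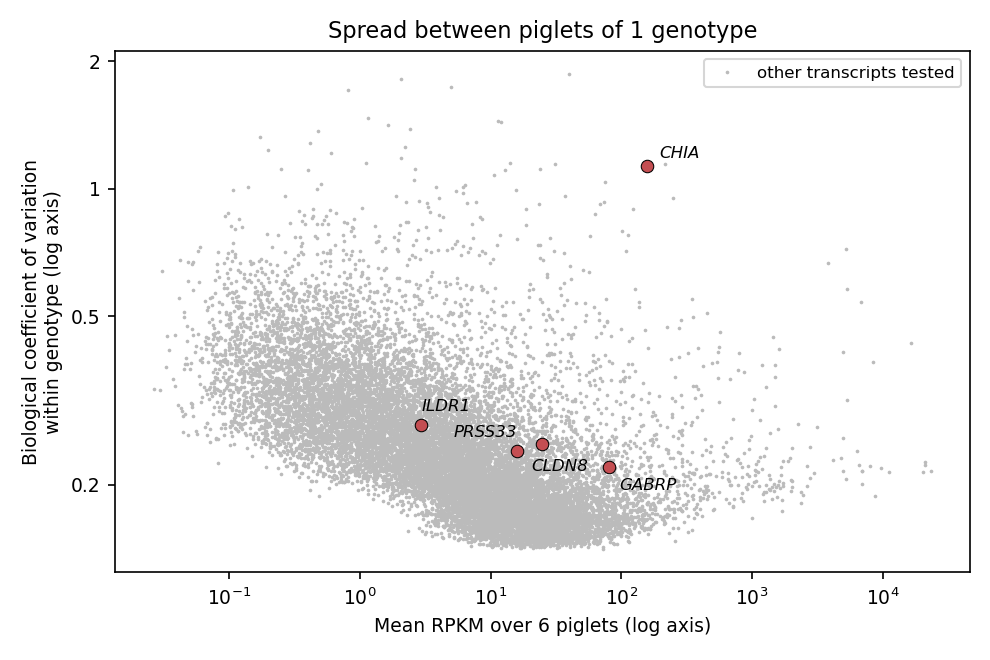
Biological coefficient of variation within genotype (edgeR, log axis) against mean RPKM over 6 piglets (log axis) for the 16645 transcripts tested (grey) and the 5 genes (red). CHIA stands at 1.13, while the other 4 genes lie between 0.220 and 0.276 inside the cloud.

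Genotypes were then set side by side on counts with TMM scaling in edgeR, where a log2 fold change is CNV/CNV over wild-type. The values were -0.89 (standard error 0.23) for *GABRP*, -0.91 (0.26) for *CLDN8*, -0.83 (0.29) for *ILDR1*, -1.05 (0.25) for *PRSS33* and -1.05 (1.51) for *CHIA*. All 5 passed the expression filter and all 5 were below 0, as were 50.2% of the transcripts tested. The genes came from a list made by this contrast, so nothing is read from the count. Of the 5, 2 were below -1, against 1.45% of all transcripts. The median was -0.91 for the 5 and 0.00 over all. At an adjusted p under 0.05 in edgeR 0 of the 5 passed, where 0.00601% of all transcripts did. At an unadjusted p under 0.05 there were 4, every gene but *CHIA*, against 2.87% of all transcripts in this direction and 5.35% in either, and DESeq2 called 28 transcripts in all at an adjusted p under 0.05. In RPKM the groups did not overlap for 3 of the 5 (*GABRP*, *CLDN8* and *PRSS33*), against 12.1% of all transcripts in this direction and 14.2% in either. This background was 5.61% on log2 CPM, where the same 3 were apart. On this scale *CLDN8* stood at 3.84 in 6407 and 3.83 in 6434, a gap well within counting error. The TMM factors were 1.069, 1.07 and 0.997 in wild-type and 0.96, 0.961 and 0.951 in CNV/CNV piglets, and the ratio of mean RPKM, CNV/CNV over wild-type, had a median of -0.13 on the log2 scale over all transcripts, so RPKM means overstate the lower values by that much.

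The size of the difference varied with the piglets compared. Between the 3 piglets whose names hold the letters ST, the meaning of which the labels do not give, CNV/CNV minus wild-type in log2 CPM was -0.99 for *GABRP*, -1.25 for *CLDN8*, -1.12 for *ILDR1* and -0.89 for *PRSS33*. Among 6407, 6415 and 6434 it was -0.56, -0.29, -0.19 and -0.82 in the same order. For *CHIA* the sign turned, from -3.04 in the ST-named set to 2.27 in the set without these letters. Without both ST-named wild-type piglets, which leaves 6407 as the only wild-type animal, the log2 fold change from edgeR was -0.50 for *GABRP*, -0.33 for *CLDN8*, -0.20 for *ILDR1*, -0.64 for *PRSS33* and 4.19 for *CHIA*. *CHIA* also moved from -1.05 to -3.39 without 6434 and to -0.37 without 6161ST.

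Markers of other parts of the ear, all taken from the same list of 280 transcripts and so chosen by the same contrast, also varied by animal. The 11 cartilage genes, all with reads in every library, summed to 78.7 RPKM in 6161ST and 12.6 in 6165ST but to 709 RPKM in 6407 and from 497 to 1062 RPKM in CNV/CNV piglets. All 11 had a log2 fold change above 0, with a median of 1.47, and 1, *CHADL*, named here for this, reached an unadjusted p under 0.05. Over all transcripts tested, 50.2% were below 0, and 5.35% had an unadjusted p under 0.05 in edgeR in either direction. *COL2A1*, which encodes type II collagen, had 0.483 RPKM in 6165ST and 24.4 in 6161ST against 156 to 542 RPKM in the other 4 piglets. The piglets with the highest levels of the gland and junction genes were thus those with the least cartilage RNA. The 15 hair shaft genes with reads summed to 1453 to 5399 RPKM in wild-type and 999 to 1559 RPKM in CNV/CNV piglets. The 8 pigment cell genes summed to 160.0 to 294 and 88.2 to 159.8 RPKM, and 5 genes of sebaceous lipid synthesis to 33.8 to 176 and 23.9 to 51.9 RPKM. These sums rest on the genes of highest level. Of the 15 hair shaft genes, 13 had a log2 fold change below 0 and 2 above. The 2 were *KRT83* at 2.31 and *KRT84* at 3.39, named here after their values were seen. *KRT84* had 84.8 RPKM in 6185STQ. Apart from *S100A3* and *SPOT14*, which had no row in the tables, no gene of these 4 lists was at 0 in any library. Interferon response genes, 12 transcripts, summed to 347 RPKM in 6161ST and to 27.1 to 51.4 RPKM in the other piglets. Of these, *OASL* and 1 transcript of *DDX58* (ENSSSCT00000022741) were at 0 in some library. The other transcript of *DDX58* had 1.80 to 17.8 RPKM. A short list of blood and leukocyte genes, 5 transcripts with *DEF6* at 0 in some library, summed to 5.33 to 11.6 RPKM in wild-type and 5.39 to 7.39 RPKM in CNV/CNV piglets, but 10.1 of the 11.6 RPKM, in 6165ST, were from the chemokine gene *CCL25*, named here after its values were seen. Of its 4 transcripts tested, 3 had a log2 fold change above 0, with a median of 0.69 over the 4. Those at an unadjusted p under 0.05 were *ALAS2*, a heme synthesis gene of red cell precursors, at 1.52 and the chemokine gene *CCL23* at 0.97. The part of these lists in the levels of the 5 genes was not tested.

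**Figure D4:**
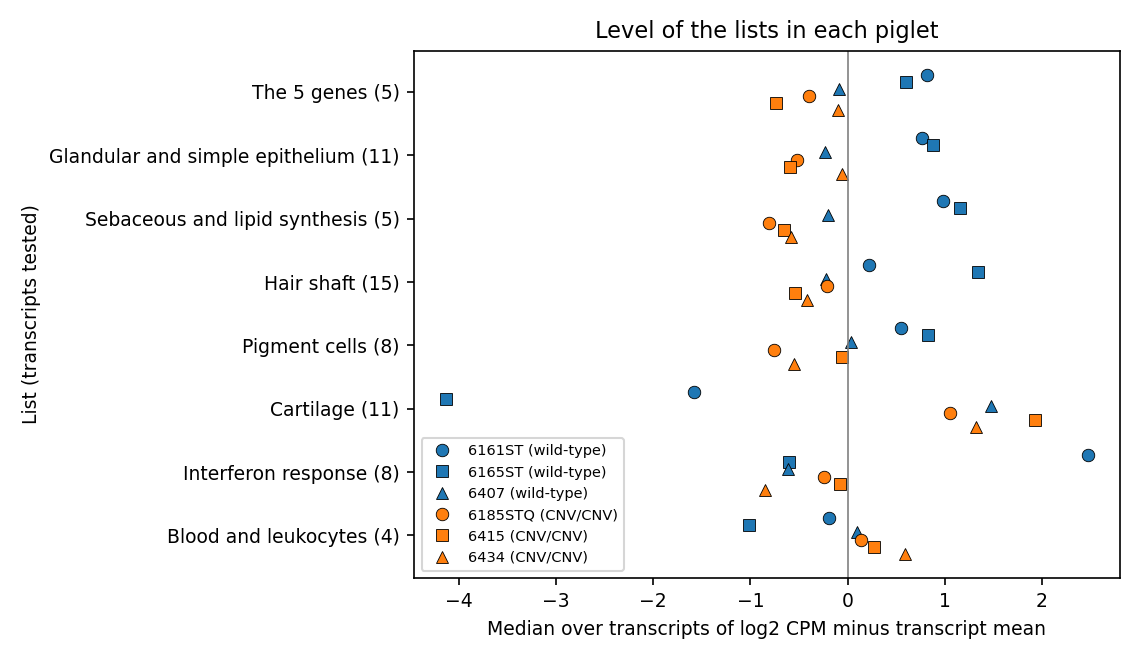
Each point is 1 piglet for the 5 genes or for 1 of 7 lists, at the median of its tested transcripts' log2 CPM after subtraction of each transcript's mean over the 6 piglets. Cartilage stands at -1.58 for 6161ST, at -4.13 for 6165ST and at 1.05 or above for the others, on the opposite side from the 5 genes, which lie at 0.82 and 0.60 in the first 2.

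Other genes of glandular and simple epithelium are set beside the 5 genes here. The 11 such genes were taken from the same list of the study and so chosen by the same contrast. Of these, 10 had a log2 fold change below 0, against 50.2% of all transcripts tested, with a median of -0.95. At an unadjusted p under 0.05 in edgeR there were 7 lower and 1 higher. Over all transcripts 2.87% were lower at that limit, and 5.35% passed it in either direction. At an adjusted p under 0.05 in edgeR there were 0, against 0.00601%. Both 6161ST and 6165ST were the highest piglets in 9 of the 11, against 23.9%, and 6415 was the lowest in 3, against 22.3%. The list was made from these same animals, so nothing is read from the counts. Both 6161ST and 6165ST were also highest in 8 of 8 pigment cell genes and 5 of 5 sebaceous genes, so this is not particular to glandular epithelium. The keratin gene *KRT8*, a marker of simple and glandular epithelium, had 49.7, 48.5 and 23.3 RPKM in 6161ST, 6165ST and 6407 and 17.7, 17.4 and 23.9 RPKM in 6185STQ, 6415 and 6434. This is the shape of *CLDN8*, down to the near equality of 6407 and 6434. *TFF3*, a trefoil peptide gene of mucous glands, had 11.3, 7.23 and 3.35 RPKM in the wild-type piglets and 3.14, 1.53 and 8.44 RPKM in the CNV/CNV piglets, with 6434 second, nearer to *CHIA*. *UPK1B*, a uroplakin gene, averaged 3.08 ± 1.38 RPKM (SD, n = 3) over wild-type and 1.53 ± 0.340 RPKM (SD, n = 3) over CNV/CNV animals. The 1 gene with a higher value was *UPK3B*, named here after its values were seen, at 12.2 RPKM in 6434 and from 0.181 to 2.42 RPKM elsewhere.

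Likeness to each gene was read as the Pearson r of log2 CPM over the 6 libraries. It was read among 13035 transcripts with a mean of at least 1 RPKM, of which 207 had a name. Names came only from the study's list, chosen by the same contrast as the 5 genes. That choice favours a high r between named transcripts, so the values below are a description only. The named transcripts nearest to *CLDN8* were *KRT8* (0.987), *ALOX15B* (0.987), a lipoxygenase gene of skin, and a metallothionein (0.972). Those nearest to *ILDR1* were the same 3, with 0.991 for *KRT8*, 0.994 for *ALOX15B* and 0.987 for the metallothionein. The last differed in size, with 29.7 and 19.2 RPKM in 6161ST and 6165ST and from 0.202 to 1.24 RPKM in the other piglets. Among named transcripts, *GABRP* was nearest to *ALOX15B* (0.962), *EMSP1* (0.960), a serine protease gene, and *NUDT16* (0.949). Transcripts without a name here reached 0.994 for *GABRP* (ENSSSCT00000019441), 0.994 for *CLDN8* (ENSSSCT00000000570) and 0.985 for *ILDR1* (ENSSSCT00000012905). *ALOX15B* itself had 6.04 RPKM in 6161ST, 4.95 in 6165ST, 2.47 in 6407, 2.02 in 6185STQ, 1.5 in 6415 and 2.37 in 6434.

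*PRSS33* had other named neighbours. They were *GSTA4* (0.979) and *GSTA1* (0.957), which encode glutathione transferases, and *ATP13A4* (0.928), which encodes a transport ATPase. The nearest of all was ENSSSCT00000027975, without a name here, at 0.993. Of the 52 transcripts at an r of at least 0.95 to *PRSS33*, 2 had a name, as did 2 of 40 for *GABRP*. Over all 13035 transcripts compared, 207 had a name. *GSTA4* had 14 RPKM in 6161ST, 7.81 in 6165ST and 4.49 in 6407, and 4.41 RPKM in 6185STQ, 1.77 in 6415 and 2.40 in 6434, the order of *PRSS33*.

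*CHIA* was near to *SLC9A4* (0.967), a sodium and proton exchanger gene, and *NXPE2* (0.964). *SLC9A4* had 5.17 RPKM in 6161ST, 4.0 in 6165ST and 0.322 in 6407, and 0.691 RPKM in 6185STQ, 0.134 in 6415 and 1.55 in 6434, with the same 3 piglets highest as for *CHIA*. At an r of at least 0.95, 92 transcripts (0.706% of those compared) were like *CHIA*, against 40 for *GABRP*, 49 for *CLDN8*, 61 for *ILDR1* and 52 for *PRSS33*. The nearest of all was ENSSSCT00000024010, without a name here, with an r of 0.998 and 19.0, 18.6, 5.36, 9.51, 4.25 and 17.0 RPKM in 6161ST, 6165ST, 6407, 6185STQ, 6415 and 6434, a much narrower range than that of *CHIA*.

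*CHI3L2*, the next gene after *CHIA* in the RefSeq annotation and a chitinase-like relative, was the other named gene of the family. It had 52.4 RPKM in 6161ST, 44.5 in 6165ST, 11.3 in 6407, 15.1 in 6185STQ, 8.45 in 6415 and 25.2 in 6434. The order of the piglets was that of *CHIA*, over a smaller range. The ratio of *CHIA* to *CHI3L2* ran from 0.304 in 6415 to 9.78 in 6434, a range of 32.1-fold. The tables count uniquely mapped reads, so reads that fit several copies of this family would be missing from both genes.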

How the data were processed

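For each of 6 ear libraries the deposited table gives uniquely mapped read counts per Ensembl transcript, the transcript length, the percent of its length covered and the RPKM that the authors made from count, length and library total (recomputed here for 100.0% of rows at a relative tolerance of 0.001). The methods name TopHat and Sscrofa 11.1, the submitters' processing notes Bowtie2, TopHat, Cuffdiff and Sscrofa10.2, so which build underlies the counts remains unclear. The counter, strand setting and tool versions were not given in the sources used here. A transcript not listed was set to 0. Gene names and Sscrofa 11.1 positions came from the study's list of 280 transcripts, 264 of them in the tables (names and positions only), since the reference tables matched 0 transcript identifiers. The FPKM, fold changes and p-values of that list were not used.

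Counts were fitted in edgeR 4.0.16 (R 4.3.3; filterByExpr, TMM, glmQLFit, glmQLFTest, genotype as the only term, Benjamini-Hochberg over 16645 transcripts). The standard error was derived from F. Counting errors cover counting alone. Log2 CPM used a prior count of 2. Alternatives were DESeq2 1.42.0, other scalings, no filter, leaving out piglets, a term for ST in the name and log2 RPKM. The fit was tested on simulated counts with known changes, drawn for each transcript on its own at the spread typical of its level. They held no effect shared by a piglet and no wider spread such as that of *CHIA*. The simulation therefore cannot show how the fit behaves with either. Members and lists were chosen with earlier results of these data known. Named were the 5 members, the 3 most alike named transcripts with a mean of at least 1 RPKM, up to 3 genes per list and *CHI3L2*. 1 named transcript is not reported here. *SPOT14*, *S100A3*, *IFIH1* and *HBB* had no row in the tables. Litter, sex and sequencing date are not in the labels, so p-values reflect only how these 3 and 3 piglets vary.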

Additional observations from a re-analysis of the deposited data

How the results depend on the processing

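No paired analysis was possible because the labels give no litter or other unit that would pair piglets across genotypes. The log2 fold changes of *GABRP*, *CLDN8*, *ILDR1* and *PRSS33* stayed below 0 in all 14 alternatives and moved by less than the spread between piglets in 13. The exception, chosen after seeing the data, was the removal of 6161ST and 6165ST, which gave -0.50, -0.33, -0.20 and -0.64. Leaving out 1 piglet gave -1.06 to -0.73 for *GABRP*, -1.13 to -0.71 for *CLDN8*, -1.07 to -0.64 for *ILDR1*, -1.24 to -0.85 for *PRSS33* and -3.39 to -0.37 for *CHIA*. *CHIA* reversed to 0.72 with a term for ST in the name and to 4.19 without 6161ST and 6165ST. The cause was not tested. The 3 genes without overlap became 5 without 6407. As 6407 was the lowest wild-type piglet for each of the 5, leaving it out can only widen the gap. The share over all transcripts was not computed without 6407, so nothing is read from this rise.

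Over all transcripts, 1 was called in edgeR at an adjusted p under 0.05, 3 without a filter, 2 with the ST term, 0 without 6161ST and 6165ST and 28 in DESeq2. Leaving out 1 piglet gave from 0 to 6. At an unadjusted p under 0.05 there were 890, and 206 without 6161ST and 6165ST, where 6407 alone stands for wild-type and is assumed to vary like the CNV/CNV piglets. Depth limits *ILDR1* most, at 134 to 379 reads.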
